A study of Rattus norvegicus with 138 samples.

Results

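The miR-200 family and miR-203 were followed in the serum of male Sprague-Dawley rats that carried metal pellets in muscle. The members were taken by name: miR-200a-3p, miR-200b-3p, miR-200b-5p, miR-200c-3p, miR-141-3p, miR-429, miR-203a-3p and miR-203b-3p. All 8 are among the 471 miRNAs of the raw count table. Pellets of depleted uranium (DU), lead (Pb), cobalt (Co), nickel (Ni), tungsten (W), aluminium (Al), copper (Cu), iron (Fe) or tantalum (Ta) were implanted in the gastrocnemius muscles of 3-month-old rats, 4 pellets to a rat. Ta served as the inert control for the surgery, so every group carried implanted metal. Serum was drawn 1, 3, 6 and 12 mo later, and its small RNA was sequenced to look for circulating marks of embedded metal. The libraries form 35 groups of n = 4, except W and Ta at 6 mo with n = 3, and no Ni library at 12 mo is analysed here. The series describes 8 rats per group, bled at each time. The labels number the libraries of a group and do not tie them to named rats, so p-values measure the spread between libraries only.

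A miRNA is a short RNA that base-pairs with messenger RNAs, mainly through its seed (bases 2 to 8), and lowers their output. The miR-200 family comes from a pair of clusters, that of miR-200b, miR-200a and miR-429 and that of miR-200c and miR-141. It represses the transcription factors Zeb1 and Zeb2, which silence E-cadherin, and is used as a mark of epithelial cells. In the mouse, miR-203 marks stratified epithelia such as skin, where it represses p63 and limits the division of basal cells. Levels in serum do not tell which tissue released a miRNA. Fewer releasing cells and less RNA released per cell cannot be told apart here.

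Mature sequences of 5 of the 8 members were found in RefSeq (rat assembly GRCr8). They are shown because some members are told apart by few bases, with the seed in capitals. The other members are miR-200a-3p, miR-200b-3p and miR-429.
miR-200c-3p: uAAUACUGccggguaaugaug
miR-141-3p: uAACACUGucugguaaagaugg
miR-200b-5p: cAUCUUACugggcagcauugga
miR-203a-3p: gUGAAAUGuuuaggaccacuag
miR-203b-3p: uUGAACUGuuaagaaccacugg

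The seeds of miR-200c-3p and miR-141-3p, products of neighbouring hairpins, differ at 1 of 7 bases. The seed of miR-200b-5p, the other strand of the miR-200b hairpin, differs from theirs at 6 and 5 of 7 bases. As background, miR-200b-3p and miR-429 belong to the seed group of miR-200c-3p, and miR-200a-3p to that of miR-141-3p. The seeds of miR-203a-3p and miR-203b-3p also differ at 1 of 7 bases. In GRCr8 the Mir429, Mir200a and Mir200b hairpins lie within 1908 bases on the minus strand of chromosome 5, and 346 bases part Mir141 from Mir200c on the minus strand of chromosome 4. On chromosome 6, miR-203a-3p lies on the plus strand, and miR-203b-3p, from the gene Mir3545, on the minus strand. There miR-203b-3p overlaps 20 bases of miR-203a-5p, the other arm of the miR-203a hairpin, and is complementary to it. The table has no row for miR-203a-5p and the strand used in counting is not given in the sources used here, so reads from the 2 strands of that stretch may not be told apart.

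The libraries held 518 to 6406599 counts (median 685384.5), and 6 libraries held fewer than 20000 counts. Of these, 4 were at 3 mo, where libraries were also the shallowest (median 286094 counts) and showed the fewest kinds of miRNA (median 99.5, against 216, 170 and 186.5 at 1, 6 and 12 mo). Levels below are counts scaled to a common library size with TMM factors (CPM). "Detected" means at least 1 count. A count of 0 is compatible with a low level in a shallow library, and intervals and floors cover counting error only.

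The members were a small part of the serum pool, and levels were set far apart within the family. Together they held 118389 of 145770219 counts (0.0812%). Of these counts miR-200a-3p gave 54.4%, miR-203a-3p 22.3% and miR-200b-3p 12.2%. Over the 132 libraries with 20000 or more counts, miR-200a-3p had a median of 437 CPM (quartiles 274 and 670, highest 2572). Next came miR-203a-3p with a median of 120.0 CPM (quartiles 46.5 and 208, highest 19343) and miR-200b-3p with 68.8 CPM (quartiles 10.9 and 147, highest 2217). The median of miR-141-3p was 10.9 CPM (quartiles 0 and 31.9, highest 1872). The other 4 had a median of 0, because most libraries gave them no count. Among them miR-200b-5p was detected in 55 of all libraries, miR-429 in 53, miR-200c-3p in 49 and miR-203b-3p in 47. By comparison miR-200a-3p was detected in 119, miR-203a-3p in 113, miR-200b-3p in 100 and miR-141-3p in 81. The last 4 members in the order (miR-200b-5p, miR-429, miR-200c-3p and miR-203b-3p) overlapped widely in level where detected, with medians of 23.1, 27.7, 18.0 and 31.9 CPM.

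**Figure D1:**
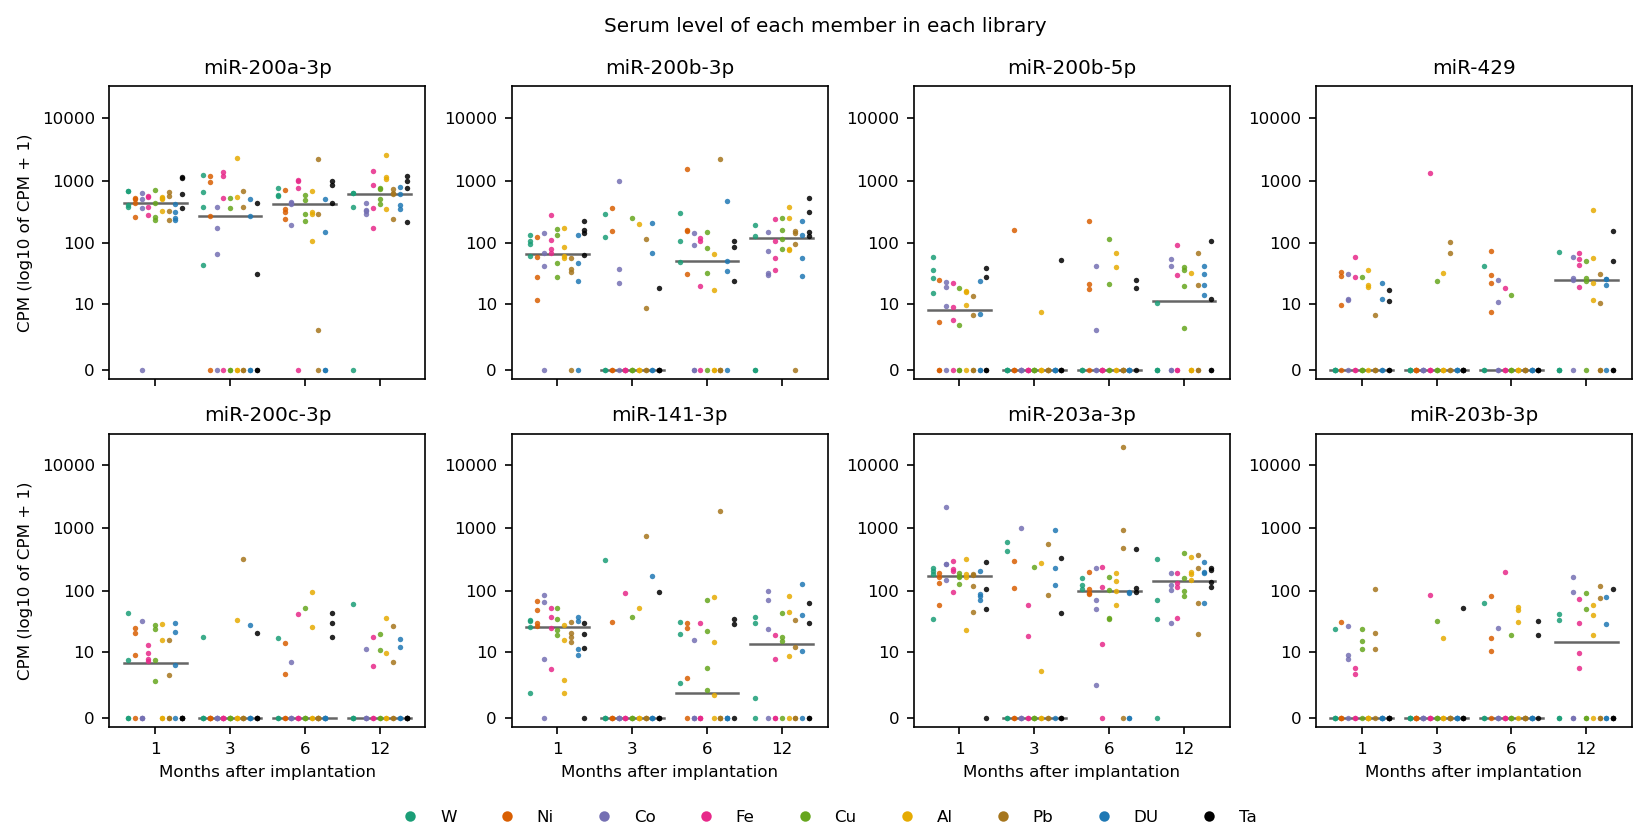
TMM-scaled CPM (log10 of CPM + 1) of each member in each library, by months after implantation; colours mark the implanted metal, Ta is black at the right of each time point, and grey lines are medians. The plot shows miR-200a-3p at a median of 437 CPM over the deep libraries, the many zeros of the 4 scarce members, and 1 Pb serum at 6 mo with 19343 CPM of miR-203a-3p.

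Within each hairpin and cluster the products were unequal. In the 132 deeper libraries miR-200a-3p exceeded miR-200b-3p in 115 and was exceeded in 7, although both come from 1 cluster. The arm miR-200b-3p exceeded miR-200b-5p in 93 libraries and was exceeded in 11. From the other cluster, miR-141-3p exceeded miR-200c-3p in 66 libraries and was exceeded in 21. At the miR-203 locus miR-203a-3p exceeded miR-203b-3p in 108 libraries and was exceeded in 4. All 55 of these libraries with miR-200b-5p, all 53 with miR-429 and all 47 with miR-203b-3p also held miR-200a-3p or miR-203a-3p. Of the other strands of these hairpins, only miR-200a-5p has a row (1 of 6 names), with 92 counts in 7 libraries.

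Detection dipped at 3 mo for all 8 members and recovered in part or in full by 12 mo. Over the whole table the kinds of miRNA detected per library were also fewest at 3 mo (median 99.5, against 216 at 1 mo). At 1, 3, 6 and 12 mo there were 36, 36, 34 and 32 libraries, of which miR-200a-3p was detected in 35, 23, 30 and 31. For miR-203a-3p these numbers were 35, 17, 30 and 31. For miR-200b-3p they were 33, 14, 24 and 29. These 3 common members thus returned to nearly every serum at 12 mo. The numbers for miR-141-3p were 34, 8, 18 and 21, so it stayed below its frequency at 1 mo. The numbers were 21, 5, 11 and 12 for miR-200c-3p, its cluster partner, and 23, 3, 11 and 18 for miR-200b-5p. The numbers for miR-429 were 17, 5, 9 and 22, and those for miR-203b-3p were 13, 4, 12 and 18. These 2 were found most often at 12 mo. No library at 1 mo lacked all 8 members, against 10 at 3 mo, 2 at 6 mo and 1 at 12 mo.

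**Figure D2:**
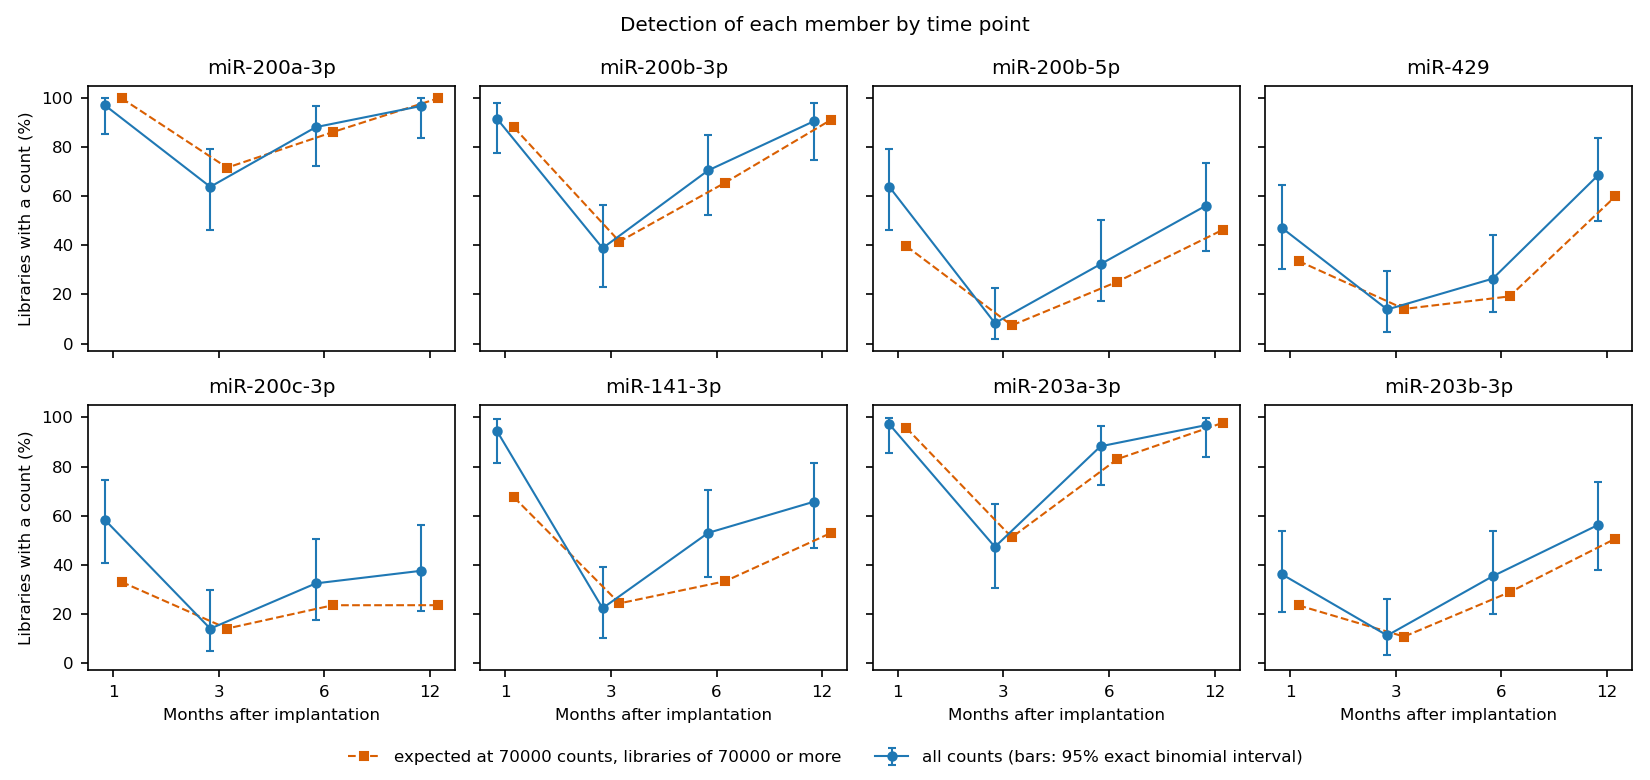
Percent of libraries with at least 1 count of each member against months after implantation (circles, with 95% exact binomial intervals), and the percent expected if each library of 70000 or more counts were read at 70000 counts (squares). Every member is lowest at 3 mo on both measures, for example miR-200a-3p at 63.9% of all libraries and 71.7% at the common depth.

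The dip at 3 mo was also there at a common depth. If every library of 70000 or more counts were read at 70000 counts, the expected share of libraries with miR-200a-3p at the 4 times was 100.0%, 71.7%, 86.2% and 100.0%. For miR-203a-3p it was 95.8%, 51.1%, 83.0% and 97.8%. For miR-200b-5p it was 39.7%, 7.40%, 25.2% and 46.4%, so the order of 1 and 12 mo turned round. For miR-200c-3p it was 32.9%, 13.9%, 23.4% and 23.5%. For miR-141-3p it was 67.5%, 24.2%, 33.2% and 52.8%. The shares of the scarce members and of miR-141-3p at 1 mo were thus lower at the common depth. For all 8 members 3 mo was the lowest time point at either depth. No such share was computed for the other miRNAs, so the dip cannot be called particular to the members.

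The 4 time comparisons asked whether levels differed between time points, averaged with equal weight over the 8 metals sampled at every time, Ta among them (edgeR quasi-likelihood test, Benjamini-Hochberg adjustment over 320 miRNAs). Of 32 member comparisons 6 were called at an adjusted p under 0.05, all of them of the scarce members miR-200b-5p, miR-429 and miR-203b-3p. Over all miRNAs 20.8% of the comparisons were called. Where groups of zeros left no usable estimate a member could not be called, and this held for miR-200c-3p in every time comparison. The 3 common members, miR-200a-3p, miR-203a-3p and miR-200b-3p, were called in none, with log2 changes between -1.62 and 1.76. Over all libraries miR-203a-3p had a median of 0 CPM at 3 mo, against 173 CPM at 1 mo. In the libraries that held it, 17 of 36 at 3 mo and 35 of 36 at 1 mo, the medians were 244 CPM at 3 mo and 176 CPM at 1 mo.

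Between 3 and 1 mo 1 of 8 members was called, where 43.8% of all miRNAs were. For miR-200c-3p, miR-429 and miR-203b-3p groups of zeros left no usable estimate, so these could not be called. The 1 called was miR-200b-5p, which fell at 3 mo. At 3 mo it was detected in 3 of 36 libraries, with a median of 0 and a highest value of 166 CPM; at 1 mo it was detected in 23 of 36, with a median of 7.85 and a highest value of 61.4 CPM. The ranges overlap, since most libraries of 3 mo are at 0 and 1, a Ni serum, exceeds all of 1 mo. Numbers detected, medians and ranges cover all libraries of a time point, whereas the fitted averages leave out Ni, which has no group at 12 mo here. The log2 change was -4.99 ± 1.01 (SE, adjusted p = 2.19e-05), beside a median of -1.62 over all miRNAs tested. With RLE in place of TMM factors that median was -1.275 and the change of miR-200b-5p -4.84, still called. The same scaling kept the direction and the call of the other 5 time comparisons given below. In 6 of the 9 groups at 3 mo it had no count, and a fitted change with such groups depends on the prior count and is no bound. A model with 1 additive effect per metal and per time, which is less exposed to groups of zeros, gave -3.62 ± 1.07 (adjusted p = 0.00574, 48.8% of all miRNAs called). In the Ta libraries alone the log2 change of miR-200b-5p was 0.038, with 1 of 4 sera detected at 3 mo and 2 of 4 at 1 mo. Its arm partner miR-200b-3p had a log2 change of -1.62 ± 0.71 (adjusted p = 0.0532). DESeq2 called 5 of the 8 members lower at 3 mo (miR-200b-5p, miR-200b-3p, miR-200c-3p, miR-141-3p and miR-429). Over the 4 time comparisons it called 35.6% of all miRNA comparisons.

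Between 6 and 3 mo no member was called (18.8% of all miRNAs), 1 had an unadjusted p under 0.05 and DESeq2 called 3 of the 8 (35.6% over all miRNAs in its 4 time comparisons). The member with the smallest p was miR-200b-3p, detected in 24 of 34 libraries at 6 mo and 14 of 36 at 3 mo (log2 1.76 ± 0.72, adjusted p = 0.0758). For 5 of the 8 members, groups of zeros left no usable estimate.

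Between 12 and 6 mo 3 of 8 members were called, all higher at 12 mo (9.06% of all miRNAs were called). For miR-429 the highest value was 343 CPM and the median 25.4 CPM at 12 mo, against a highest of 76.7 CPM and a median of 0 at 6 mo (log2 5.05 ± 0.96, adjusted p = 0.000269). For miR-200b-5p the median was 11.4 CPM at 12 mo and 0 at 6 mo (log2 3.49 ± 0.82, adjusted p = 0.00181). For miR-203b-3p the median was 14.7 CPM at 12 mo and 0 at 6 mo (log2 2.80 ± 0.89, adjusted p = 0.0261). All 3 had counts in every group of 12 mo, whereas 4, 4 and 2 of 9 groups at 6 mo had none. The additive model called none of these (10.3% of all miRNAs called), with miR-429 at 3.10 ± 1.10 (adjusted p = 0.0528), miR-200b-5p at 2.30 ± 1.01 (adjusted p = 0.159) and miR-203b-3p at 1.76 ± 1.06 (adjusted p = 0.391). DESeq2 called all 3 higher at 12 mo, and miR-141-3p too (35.6% over all miRNAs in its 4 time comparisons). Of 126 edgeR fits that each left out 1 library, 125 kept the call of miR-429, 124 that of miR-200b-5p and 119 that of miR-203b-3p. The calls of miR-429 and miR-200b-5p ended without W at 12 mo replicate 2, and that of miR-200b-5p also without Al at 12 mo replicate 2. In these fits a group was left without any count, so there was no usable estimate. The call of miR-203b-3p ended without Ta at 12 mo replicate 2, for the same reason, and without any of 6 other libraries (Cu at 12 mo replicate 1, Ta at 6 mo replicates 1 and 3, W at 12 mo replicate 2 and W at 6 mo replicates 2 and 3). With the replicate block miR-203b-3p was also not called (log2 2.56, adjusted p = 0.055).

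Between 12 and 1 mo 2 of 8 members were called, again higher at 12 mo (11.6% of all miRNAs called). For miR-203b-3p the values ran to 165 CPM around a median of 14.7 CPM at 12 mo, against 110 CPM around a median of 0 at 1 mo (log2 4.17 ± 0.97, adjusted p = 0.00121). For miR-429 they ran to 343 CPM around 25.4 CPM at 12 mo, and to 61.2 CPM around 0 at 1 mo (log2 2.54 ± 0.81, adjusted p = 0.0273). Ranges of both times overlap in both cases. The additive model gave 2.72 ± 1.02 (adjusted p = 0.0629) for miR-203b-3p and 2.15 ± 0.91 (adjusted p = 0.11) for miR-429, with 12.5% of all miRNAs called. DESeq2 called both higher at 12 mo (35.6% over all miRNAs in its 4 time comparisons). Of 126 edgeR fits that each left out 1 library, 125 kept the call of miR-203b-3p and 124 that of miR-429. The call of miR-203b-3p ended without Ta at 12 mo replicate 2, and that of miR-429 without W at 12 mo replicate 2. In both of these fits there was no usable estimate. The call of miR-429 also ended without Al at 12 mo replicate 3, with the replicate block (log2 2.28, adjusted p = 0.0595) and without the libraries under 20000 counts (log2 2.38, adjusted p = 0.0503). The common members showed log2 changes of 0.41 ± 0.51 (miR-200a-3p), 0.63 ± 0.67 (miR-200b-3p) and -0.20 ± 0.58 (miR-203a-3p).

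Markers of other sources moved over the same times, and their part in these results was not tested. The summed level of the liver pair miR-122-5p and miR-122-3p (2 of 2 names in the table) had a median of 132215 CPM at 12 mo (10474 to 349856), against 19396 CPM at 1 mo (1819 to 61590), and both rose by the test. The erythrocyte list (4 of 5 names) had a median of 2928 CPM at 12 mo (1308 to 10663), against 3875 CPM at 1 mo (1122 to 8727), with 0 of 4 called. In the leukocyte list (5 of 5 names) the medians were 4131 CPM at 12 mo (569 to 9050) and 5792 CPM at 1 mo (2747 to 8879), with 0 of 5 called. The muscle list (4 of 4 names) had medians of 887 CPM at 12 mo (0 to 26549) and 408 CPM at 1 mo (0 to 14601), and the platelet and endothelium list (3 of 3 names) 2125 CPM at 12 mo (893 to 42678) and 2434 CPM at 1 mo (0 to 10475), with none called in either. At 3 mo the medians were 42613 CPM for the liver list (4244 to 195606), 4997 CPM for the erythrocyte list (0 to 741386) and 7605 CPM for the leukocyte list (0 to 24171). They were 1233 CPM for the muscle list (0 to 30295) and 2681 CPM for the platelet and endothelium list (0 to 110012). The calls at these times went both ways. Between 3 and 1 mo, miR-122-5p (log2 1.16), miR-451-5p of erythrocytes (1.97), miR-223-3p of myeloid cells (2.75), the muscle pair miR-1-3p (2.76) and miR-206-3p (1.86) and miR-199a-3p (1.82) rose, while miR-144-5p of erythrocytes (-2.15) and miR-126a-3p of endothelium (-1.07) fell. Between 6 and 3 mo miR-133a-3p of muscle rose (3.29), while miR-451-5p (-1.07), miR-223-3p (-1.85) and miR-199a-3p (-1.69) fell. Between 12 and 6 mo miR-122-5p (1.17), miR-122-3p (2.68) and miR-155-5p of activated leukocytes (3.91) rose and miR-451-5p fell (-1.15). No name of the 5 lists that is in the table was at 0 in every library of a time point.

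Other miRNAs known from epithelia did not follow 1 course. The list holds 14 names, 11 of them in the table and 10 tested. Between 3 and 1 mo 2 rose and 3 fell, where 8.12% of all miRNAs rose and 35.6% fell. The 3 were miR-205, of stratified epithelia (log2 -2.88 ± 0.95, adjusted p = 0.00793), miR-183-5p, of sensory epithelia (-6.28 ± 0.95, adjusted p = 3.91e-08), and miR-192-5p, of gut, liver and kidney (-0.73 ± 0.24, adjusted p = 0.00668). Between 6 and 3 mo the same 3 rose (12.8% of all miRNAs did), miR-205 by 4.38 ± 1.03 (adjusted p = 0.000546), miR-183-5p by 5.48 ± 0.93 (adjusted p = 2.55e-06) and miR-192-5p by 0.78 ± 0.24 (adjusted p = 0.0107). Between 12 and 6 mo 1 rose, miR-31a-5p of keratinocytes (4.82 ± 0.96, adjusted p = 0.000409), where 7.81% of all miRNAs rose. Between 12 and 1 mo 2 did, miR-31a-5p (2.42 ± 0.85) and miR-194-5p (1.83 ± 0.63), where 4.69% of all miRNAs rose. In contrast to miR-205 and miR-183-5p, miR-194-5p of gut and liver and miR-375-3p of pancreatic islets rose at 3 mo (2.67 ± 0.65 and 1.33 ± 0.38, adjusted p = 0.000305 and 0.00212). Averaged over time, 2 metal comparisons of the list were called: miR-34c-5p was higher in DU (6.58 ± 1.64, adjusted p = 0.0177) and miR-96-5p lower in Pb (-4.17 ± 1.15, adjusted p = 0.0229), where it was also called at 6 mo alone, with no count in Pb (adjusted p = 0.04).

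The comparison of each metal with Ta, averaged over the time points, asked which metals shifted the members through the year. Of 64 member comparisons edgeR called 1, that of miR-200b-5p in DU, where 1.09% of all comparisons and 3.75% of those in DU were, and DESeq2 called 19 (14.6% over all miRNAs). For miR-200c-3p, miR-429 and miR-203b-3p, groups of zeros left a usable edgeR estimate in only 2 metals each. Their comparisons in the other metals could not be called and do not show that levels were alike. DESeq2 called the common member miR-200b-3p lower in Fe (log2 -4.98), and the additive model called miR-203a-3p higher in Pb, as described below. In the averaged edgeR comparison none of the common members was called in any metal. For miR-200a-3p the log2 differences ran from -0.86 in DU to 0.30 in Fe, for miR-203a-3p from -0.87 in Fe to 1.30 in Pb and for miR-200b-3p from -1.86 in Fe to 1.90 in Ni, with no adjusted p under 0.611. The standard errors of these estimates ran from 0.74 to 1.21 on the log2 scale, so differences of several fold either way could not be told from 0.

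The called member, miR-200b-5p, had the lower mean in DU (8.87 ± 14.0 CPM, against 19.3 ± 30.2 CPM in Ta, SD over 16 and 15 sera). At 1 mo the 4 DU sera held 24.4, 0, 6.82 and 0 CPM, against 0, 0, 28.7 and 40.3 CPM in Ta. At 3 mo all 4 DU sera were at 0, against 0, 0, 0 and 55.2 CPM in Ta, and at 6 mo all 4 were again at 0, against 25.2, 19.2 and 0 CPM in Ta. At 12 mo the DU sera held 31.7, 43.4, 20.8 and 14.7 CPM, against 12.3, 0, 108 and 0 CPM in Ta. It was thus detected in 6 of 16 DU sera and 7 of 15 Ta sera, the ranges overlapped wherever DU had counts, and at 12 mo DU was the group with the more complete detection. The averaged log2 difference was -3.80 ± 1.16 (adjusted p = 0.0394). DU had no count at 2 of the 4 times, so this size depends on the prior count. In the additive model it was -3.47 ± 1.40 (adjusted p = 0.0879, 14.7% of all miRNAs called). The call ended when any 1 of 21 of the 31 libraries was left out, 13 of them DU and 8 Ta (log2 -4.01 to -2.97). It also ended without the low-count filter (-3.58, adjusted p = 0.0752), with the replicate block (-3.90, adjusted p = 0.0611) and without the libraries under 20000 counts (-3.78, adjusted p = 0.0685).

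Markers of blood cells were called in the same comparison, and their part in the result was not tested. In DU miR-451-5p of erythrocytes was lower (log2 -1.69 ± 0.52, adjusted p = 0.0394; 1 of 4 of its list) and miR-142-3p of leukocytes higher (5.04 ± 1.44, adjusted p = 0.0343; 1 of 5), and miR-142-3p had counts in 13 libraries of the series. The summed erythrocyte list had a median of 2894 CPM in DU (0 to 33978), against 5846 CPM in Ta (1651 to 741386), and the leukocyte list one of 4467 CPM in DU (0 to 9515), against 5528 CPM in Ta (3131 to 12702). The lower erythrocyte list was not particular to DU. Its median log2 difference from the shared Ta sera was below 0 in every metal, from -2.04 in Co to -0.90 in Al, with -1.65 in DU. In Cu miR-451-5p was also lower (-2.32, the 1 call in that metal, 0.312% of all miRNAs). In Pb, where 4.38% of all miRNAs were called, miR-16-5p of erythrocytes (-1.96), miR-122-3p of liver (-4.95) and miR-126a-5p of endothelium (-2.76) were lower. At single times miR-16-5p was lower in Co at 3 mo (-7.98) and miR-126a-5p in Pb at 6 mo, where Pb had no count (adjusted p = 0.00217).

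The same arm had values of like size in other metals that edgeR did not call. The log2 difference was -4.02 ± 1.33 in Pb (adjusted p = 0.0592), -4.01 ± 1.28 in W (adjusted p = 0.176) and -3.71 ± 1.27 in Fe (adjusted p = 0.155). In these 3 metals too it was at 0 in every library of 3 and 6 mo. DESeq2 called it lower in Pb, W and Fe, as well as in DU, Co and Cu. The 8 comparisons share the 15 Ta libraries, and in them miR-200b-5p was detected in 7. In Ni it was detected in 6 of 12 sera, with up to 225 CPM, and the difference was 0.82 ± 1.47.

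Values with an unadjusted p under 0.05 were found for 2 more members. Each had a usable edgeR estimate in only 2 metals, the ones named here, so the other metals cannot be set beside them. For miR-429 the averaged log2 difference was 4.52 ± 1.40 in Fe (adjusted p = 0.122), which includes the serum of 1301 CPM described below, and 2.37 ± 1.11 in Cu (adjusted p = 0.535). The mean level in Cu was nevertheless the lower one, with 10.7 ± 16.02 CPM in Cu and 16.1 ± 42.2 CPM in Ta (SD over 16 and 15 sera), of which 1 Ta serum held 160 CPM. It was detected in 8 of 16 Fe sera and 6 of 16 Cu sera, against 4 of 15 Ta sera. For miR-200c-3p the difference was 3.40 ± 1.34 in Al (adjusted p = 0.335) and 2.68 ± 1.24 in W (adjusted p = 0.367), with detection in 7 of 16 Al and 5 of 15 W sera, against 4 of 15 Ta sera. DESeq2 called miR-429 higher in Al, Co, Cu, Fe, Ni and Pb, and miR-200c-3p higher in Al, Pb and W (14.6% over all miRNAs). All 8 averaged edgeR values with an unadjusted p under 0.05 (12.5% of 64, beside 10% over all miRNAs) came from members with groups of zeros.

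At single time points 0 of 216 member comparisons with Ta were called by edgeR, where 0.193% of all miRNA comparisons were. Unadjusted p-values were under 0.05 in 25 (11.6%), beside 10.5% over all miRNAs, and DESeq2 called 4 (5.05% over all miRNAs). Its calls were miR-200a-3p lower in DU at 1 mo, miR-203b-3p lower in DU and in Pb at 6 mo, and miR-203a-3p higher in Pb at 6 mo. At 3 mo only miR-200a-3p, miR-200b-3p, miR-141-3p and miR-203a-3p passed the low-count filter; at the other times all 8 did. In 23 of the 25 comparisons 1 of the groups had no count at all, Ta in 17 and the metal in 6.

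**Figure D3:**
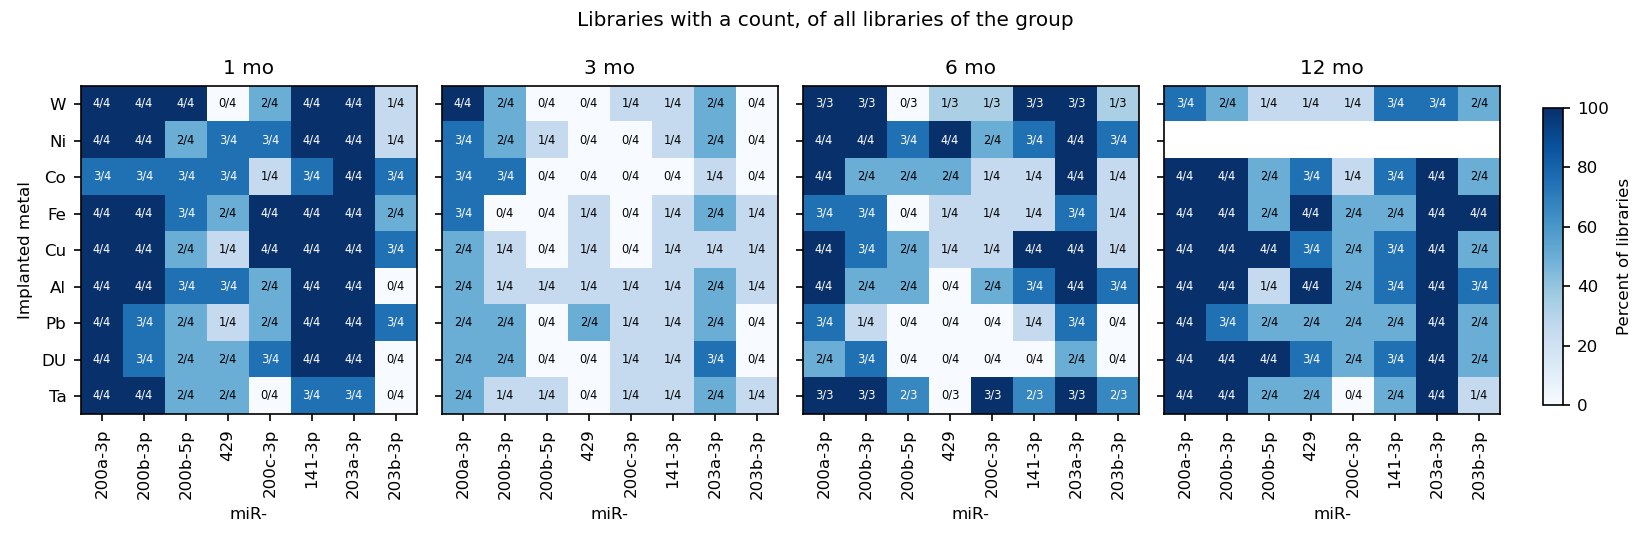
Number of libraries with at least 1 count, of all libraries of the group, for each member (columns) and implanted metal (rows, Ta at the bottom), in 1 panel per time point; darker blue is a higher percent. The miR-200c-3p column is 0/4 in Ta at 1 and 12 mo and 3/3 at 6 mo, and there was no Ni group at 12 mo.

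The member miR-200c-3p made up 15 of the 25, and its detection in the Ta libraries differed between time points. At 1 mo it was detected in 21 of 32 metal sera, spread over all 8 metals (388 counts), against 0 of 4 Ta sera. In Fe all 4 sera had counts, with 9.61, 13.3, 6.89 and 7.64 CPM. Their mean was at least 5.46-fold above the level of 3 counts over the 4 Ta libraries (1.71 CPM), or at least 3.25-fold without replicate 2 of Ta, and the adjusted p for Fe was 0.518. At 12 mo it was detected in 12 of 28 metal sera and in 0 of 4 Ta sera. At 6 mo the order was turned round, with 8 of 31 metal sera, against 3 of 3 Ta sera at 30.8, 18.1 and 44.8 CPM. The Ta libraries of 1 mo were also shallower than the median of the series (316852 to 539673 counts, median of 178 miRNAs), which moves with the result and whose part in it was not tested.

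A like pattern was seen for miR-203b-3p at 1 mo. It was detected in 13 of 32 metal sera, in 6 of the 8 metals, against 0 of 4 Ta sera. The Pb sera held 20.8, 0, 11.2 and 110 CPM (edgeR, adjusted p = 0.315), with a mean at least 20.7-fold above the floor of Ta, or at least 6.22-fold without replicate 4 of Pb. Ni, Co and Cu also had an unadjusted p under 0.05.

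In DU at 6 mo 4 members with counts in Ta were at 0 in every serum. The Ta sera then held 30.8, 18.1 and 44.8 CPM of miR-200c-3p, 29.8, 36.1 and 0 CPM of miR-141-3p, 25.2, 19.2 and 0 CPM of miR-200b-5p and 0, 32.7 and 19.4 CPM of miR-203b-3p. Set against 3 counts over the 4 DU libraries (0.323 CPM), the Ta means put DU at least 96.6-fold lower for miR-200c-3p, 68.0-fold for miR-141-3p, 53.7-fold for miR-203b-3p and 45.8-fold for miR-200b-5p. Single libraries moved these bounds: without replicate 2 of DU, the deepest, the floor was 0.543 CPM and they were 57.5, 40.5, 32.0 and 27.2-fold. That of miR-203b-3p was 30.0-fold without replicate 2 of Ta. None was called by edgeR (adjusted p = 0.284 for each of the 4), while DESeq2 called miR-203b-3p. The DU libraries were the deeper ones (507140 to 6406599 counts, against 720097 to 1354321 in Ta) but showed fewer kinds of miRNA (77 to 179, against 168 to 223), and the part of this in the result was not tested. The more common miR-200b-3p was detected in 3 of 4 DU sera at that time, at 53.2, 35.4, 0 and 476 CPM, against 24.2, 109 and 88.7 CPM in Ta.

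The other single comparisons with an unadjusted p under 0.05 and a metal at 0 were miR-429 in W at 1 mo (0 of 4 W sera, against 2 of 4 Ta sera) and miR-200c-3p in Pb at 6 mo (0 of 4 Pb sera, against 3 of 3 Ta sera, at least 24.4-fold lower, or 14.7-fold without replicate 1 of Pb, adjusted p = 0.222).

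In 2 comparisons both groups had counts. At 1 mo the DU sera held 430.5, 234, 255 and 319.6 CPM of miR-200a-3p, against 1161, 1116, 371 and 616 CPM in Ta. The groups overlap, since the lowest Ta serum lies below the highest DU serum. The means were 310 ± 88.5 CPM in DU and 816 ± 386 CPM in Ta (SD, n = 4 each), a log2 difference of -1.36 ± 0.61 (edgeR, adjusted p = 0.372). All 8 metals lay below Ta at this time, from -1.36 in DU to -0.59 in W, and they share the 4 Ta sera. At 3 mo all 8 lay above it (0.28 in Cu to 2.14 in Al).

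The second was miR-203a-3p in Co at 1 mo, which rested on 1 near-empty library. The Co sera held 2180, 269, 268 and 150.1 CPM, against 0, 52.2, 109 and 288 CPM in Ta. The first of these Co libraries has 12213 counts in all, of which 65 were miR-203a-3p. The log2 difference was 2.81 ± 0.98 (edgeR, adjusted p = 0.476), and 0.98 without that library (adjusted p = 0.801).

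The test of whether the difference from Ta changed between time points called 0 of 64 member comparisons by edgeR, where 1.64% of all were. Unadjusted p-values were under 0.05 in 14 (21.9%), beside 15.6% over all miRNAs, and DESeq2 called 0 (2.51% over all miRNAs).

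The highest levels of the family stood in single sera. Replicate 2 of Pb at 6 mo (156881 counts, 70 miRNAs detected) held 19343 CPM of miR-203a-3p from 5994 counts, where the next highest of the 132 deeper libraries held 998 CPM. The other 3 Pb sera at that time held 0, 943 and 481 CPM, against 111, 469 and 97.8 CPM in Ta. The same serum had the highest miR-200b-3p (2217 CPM, next 1501) and miR-141-3p (1872 CPM, next 747), and the third highest miR-200a-3p (2182 CPM). It gave no count of miR-200b-5p, miR-200c-3p, miR-429 or miR-203b-3p. The 4 high members thus came from all 3 loci, while other products of the same loci were at 0.

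**Figure D4:**
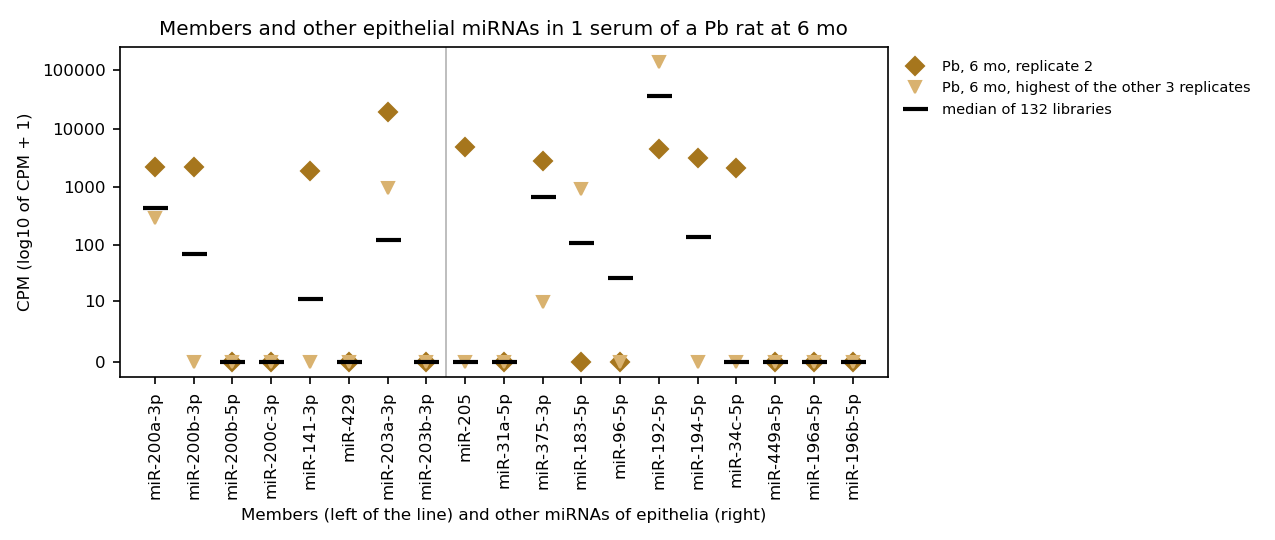
TMM-scaled CPM (log10 of CPM + 1) of the members and of other miRNAs known from epithelia in Pb at 6 mo replicate 2 (diamonds), the highest of the other 3 replicates (triangles) and the median of 132 libraries (bars). The diamonds of miR-203a-3p (19343 CPM), miR-205 (4818 CPM) and miR-34c-5p (2130 CPM) stand far above the bars, while 4 members are at 0.

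Other epithelial miRNAs were high there too, though not all. Its miR-205 was 4818 CPM (next 242), its miR-34c-5p, known from ciliated epithelia and testis, was 2130 CPM (next 166), and its miR-194-5p was 3072 CPM, the third highest. By contrast miR-192-5p was 4392 CPM, below its median of 36708, and miR-183-5p, miR-96-5p, miR-31a-5p, miR-449a-5p, miR-196a-5p and miR-196b-5p were at 0. In all 19 miRNAs had their highest level in this library (median of 3 per library, range 0 to 21).

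This serum decided the values of Pb for 3 members. For miR-203a-3p the log2 difference between Pb and Ta at 6 mo was 3.96 ± 1.99 with it (edgeR, adjusted p = 0.222) and 1.25 ± 1.98 without it (adjusted p = 0.796). The difference averaged over the time points was 1.30 ± 0.86 with it (adjusted p = 0.726) and 0.44 ± 0.87 without it (adjusted p = 1). In the additive model miR-203a-3p was called higher in Pb with this serum (3.02 ± 1.01, adjusted p = 0.038, 10% of all miRNAs called) and not without it (0.55 ± 0.85, adjusted p = 0.897, 8% called). The averaged difference of miR-141-3p was 1.59 ± 1.18 with it and -1.37 ± 0.98 without it, and that of miR-200b-3p was 0.36 ± 0.98 with it and -2.66 ± 1.04 without it (adjusted p = 0.129). None of these averages was called.

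At 3 mo 2 other sera had high levels of some members and no count of others. Replicate 1 of Pb (350296 counts) had 322 CPM of miR-200c-3p, the highest of 132 libraries (next 97.5), and 747 CPM of miR-141-3p, the second highest. Its other 6 members, miR-200a-3p among them, were at 0, so the pair came from 1 cluster. Replicate 2 of Fe (455851 counts) had 1301 CPM of miR-429 from 577 counts, the highest of all (next 343), with 1359 CPM of miR-200a-3p from the same cluster and no count of miR-200b-3p. It also held 85.7 CPM of miR-203b-3p from 38 counts and 60.9 CPM of miR-203a-3p from 27 counts. The other 3 Fe sera at that time had no miR-429.

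Levels of the members were only loosely tied to each other across sera. After the mean of each time point was subtracted, Spearman's rho over 132 libraries lay between 0.03 (miR-429 and miR-200c-3p) and 0.33 (miR-200a-3p and miR-203a-3p) for the 28 pairs. Products of 1 cluster were no exception, with 0.26 for miR-200a-3p and miR-200b-3p, 0.14 for miR-200a-3p and miR-429, 0.26 for miR-200b-3p and miR-429, and 0.19 for miR-200c-3p and miR-141-3p. The arms miR-200b-3p and miR-200b-5p gave 0.07, and miR-203a-3p and miR-203b-3p gave 0.12. These are descriptions: the libraries share depth and time point, and the scarce members are at 0 in most of them.

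**Figure D5:**
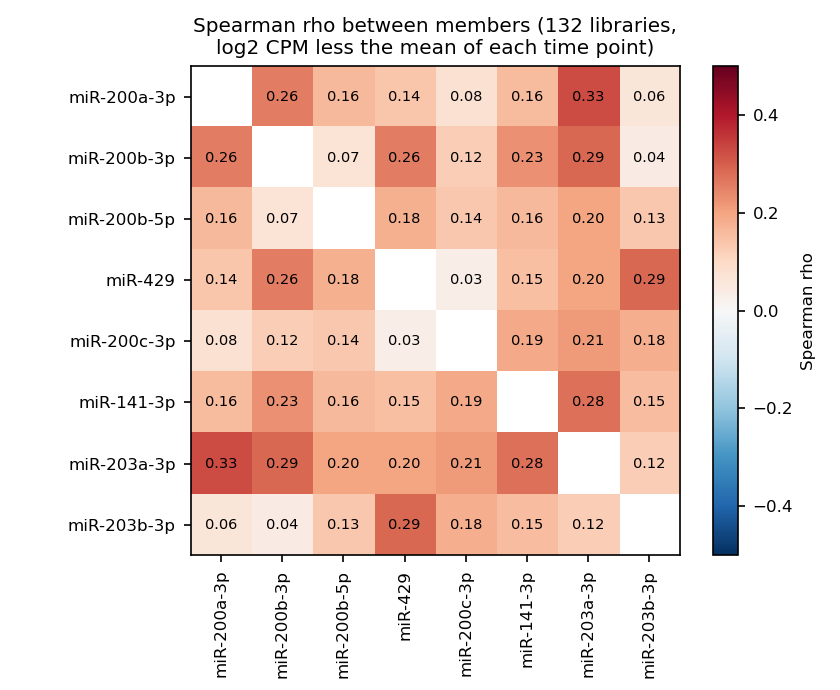
Spearman's rho between the members over 132 libraries, from log2 CPM less the mean of each time point; darker red is a higher rho, and the diagonal is left blank. All 28 pairs lie between 0.03 and 0.33, and pairs from 1 cluster do not stand out.

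For the 6 members with counts in at least 50 libraries, the miRNA with the highest rho on the same time-centred scale was not a member. The first 3 for miR-200a-3p were miR-27b-3p (rho 0.54), miR-140-3p (0.46) and miR-22-3p (0.43), among 319 other miRNAs with a median rho of 0.12. For miR-203a-3p they were miR-22-3p (0.43), miR-378a-3p (0.42) and miR-140-3p (0.41), with a median of 0.10. For miR-200b-3p the first was miR-7a-5p (0.40), for miR-141-3p miR-374-5p (0.43), for miR-429 miR-199a-5p (0.40) and for miR-200b-5p miR-181c-5p (0.34). Before time point means were subtracted, the number of kinds of miRNA detected had a rho between 0.20 (miR-200a-3p) and 0.51 (miR-141-3p) with the members. Over the same libraries the library total had a rho between -0.07 and 0.31. Both ranges include differences between time points and are not on the time-centred scale.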

How the data were processed

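Serum small RNA was converted to libraries with a Norgen Biotek kit and sequenced on an Illumina NextSeq instrument, per the labels' protocols. The deposited values are raw read counts per mature miRNA that the authors obtained against the rat genome (Rnor 6.0, per the submitters' processing notes). For the aligner, annotation release and strand setting the sources used here give nothing. The 138 libraries (518 to 6406599 counts) were grouped by metal and month from their titles.

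The whole table of 471 miRNAs was fitted with the quasi-likelihood F test of edgeR 4.0.16 in R 4.3.3 (limma 3.58.1), with TMM factors and filterByExpr (minimum count 10, minimum total 15). P-values were adjusted by Benjamini-Hochberg within each comparison and called under 0.05. Standard errors are the absolute log2 change over the square root of F. Estimates with a standard error of 20 or more were not used. The fitting code was tested on simulated data. Floors are 3 counts over a group.

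All members are named, each metal comparison of a member is given on its own where its unadjusted p was under 0.05, and miRNAs of other lists are given where called. The members and lists (erythrocyte, liver, muscle, leukocyte, platelet and endothelium, other epithelial miRNAs and other strands) were chosen with earlier results of these data known. Alternatives were RLE size factors, no filter, DESeq2 1.42.0, a replicate block, leaving out libraries, Ta libraries alone, only the groups compared and an additive model, which was chosen after seeing the data, as was leaving out 1 Pb serum. Detection at a common depth used 70000 counts and libraries of at least that depth.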

Additional observations from a re-analysis of the deposited data

Results flagged for a closer look

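In 5 of the 69 groups of 4 libraries in which a member was counted in every library, 1 library lay far from the other 3 by Dixon's criterion. Chance alone gives about 1 in 20, and no cause was tested. All 5 were low. Replicate 4 of Pb at 12 mo held 249 CPM of miR-200a-3p, where the other 3 held 618 to 729 CPM. Replicate 3 of Al at 1 mo held 329.7 CPM of miR-200a-3p, where the others held 515 to 547 CPM. Replicate 1 of Co at 6 mo held 194 CPM of miR-200a-3p, where the others held 422 to 453 CPM. Replicate 1 of W at 1 mo stood apart in both members: it held 1.43 CPM of miR-141-3p from 2 counts, where the others held 26.4 to 33.8 CPM, and 35.0 CPM of miR-203a-3p, where the others held 191 to 234 CPM.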

How the results depend on the processing

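The count of members called at single time points (0) was 4 with DESeq2 and 0 in the other alternatives, leaving out each library included. For the averages over time (1) it was 0 without the low-count filter, with the replicate block and without the libraries under 20000 counts, 19 with DESeq2, 1 with RLE factors and with the additive model (another member, miR-203a-3p in Pb), and 0 to 1 when each library was left out. For the time comparisons (6) it was 7 without the filter, 4 with the block, 5 without the shallow libraries, 0 in the Ta libraries alone, 1 in the additive model, 14 with DESeq2, 6 with RLE factors and 2 to 9 when each library was left out, lowest without W at 12 mo replicate 2. For the change between times (0) it was 1 without the filter (miR-203b-3p in Pb), 0 with the block and DESeq2, and 0 to 1 when each library was left out. Replicate numbers were checked for pairing only between different metals at the same time point. There same-numbered libraries had a mean correlation of 0.0175 and differently numbered ones of -0.00567. Of the same-numbered pairs, 98 of 485 were over 0.1. Whether libraries of the same metal at different months came from the same rat was not tested.

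Of the single values whose direction turned round, that of miR-200b-5p between 3 and 1 mo was called with all libraries. Between 3 and 1 mo, log2 was 0.016 for miR-203a-3p, 0.90 for miR-141-3p and 0.038 for miR-200b-5p in Ta alone, and 0.019 for miR-200a-3p with RLE. Between 6 and 3 mo it was -0.0053 for miR-203a-3p with RLE. Between 12 and 6 mo it was 0.26 for miR-203a-3p with the block, -0.18 to 0.34 when each library was left out (highest without Pb at 6 mo replicate 2), and -0.054 for miR-200a-3p in Ta alone. Between 12 and 1 mo, Ta alone gave 0.24 for miR-203a-3p, -0.36 for miR-200a-3p and 0.41 for miR-141-3p; miR-141-3p was 0.0088 with the block and 0.057 with DESeq2, leaving out each library gave -0.46 to 0.0079 for miR-203a-3p (highest without Co at 1 mo replicate 1) and -0.036 to 0.92 for miR-200b-5p (lowest without Al at 12 mo replicate 2). Without replicate 2 of Pb at 6 mo, the Pb difference was -1.37 on average and -7.85 at 6 mo for miR-141-3p, and -2.66 and -9.68 for miR-200b-3p (-1.62 on average in the additive model), with fits at 6 mo that depend on the prior count because Pb then has no count. The cause was not tested. At a depth of 70000 counts, fewer libraries of 1 mo would be expected to show the 4 scarce members than did. The same held for miR-141-3p (67.5% expected, against 94.4% detected).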
